A study of Rattus norvegicus with 10 samples.

Results

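The immediate early genes Fos, Jun, Junb, Egr1, Atf3, Ier2, Ier3, Btg2, Myc and Nr4a1 were examined in the livers of rats fed an instant noodle diet with or without its seasonings. Members were chosen by name, and every probe set that the array's gene table assigns to 1 of them alone was used, whatever its signal. Of the 10 genes, 9 were represented by 12 of the 31042 probe sets tested. Btg2 had no probe set under its name in the gene table, so its signal was not analysed here. A probe set is the group of oligonucleotides on the array that together report 1 transcript, and its value here is a log2 signal, so that a difference of 1 is a doubling.

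The seasoned rats (N-group, animals 1, 4, 7, 10 and 13) ate feed holding 30 wt% instant noodle and deriving 26% of its energy from fat. The control rats (C-group, animals 2, 5, 8, 11 and 14) ate that feed with the seasonings left out, so both groups received the noodle and the fat. All were males aged 13 weeks that ate their feed for 30 days by paired feeding (near 60 g daily for each kg of rat). Lights were on for 12 h a day, and the labels used here name neither strain nor hour of sampling. There were 5 livers per diet and 1 array per liver, and the question was which liver transcripts differ with the seasonings. Albumin (Alb), a hepatocyte marker, was at 14.34 on the log2 scale, and the median of 7 measured brain markers was 6.28. These are levels of different probe sets, and 6 of 7 measured markers of hepatocytes and 6 of 7 of brain were nearly the same on every array, so they are no more than a weak check of the tissue label; the varying brain marker, Mbp, averaged 7.38 in seasoned and 7.15 in control livers. The array codes place every seasoned liver in row A and every control liver in row B, so row and diet cannot be told apart. In whole liver, fewer cells of a type and less RNA per cell cannot be told apart either.

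Immediate early genes are transcribed within minutes of a stimulus without new protein synthesis, because the factors that switch them on are already present and are activated by phosphorylation. Growth factors act through ERK kinases on the serum response factor, which binds CArG boxes, and on its ETS partners. Cyclic AMP and calcium act through CREB, which binds cyclic AMP response elements. Their products are transcription factors and feedback regulators whose messages decay quickly. In liver they are known for their surge after partial hepatectomy, and for their response to feeding, hormones, cell stress and the handling of the tissue.

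Promoter sequence is given first. RefSeq windows of 250 bases before to 50 after the annotated start (GRCr8) were at hand for 5 members, and those of Egr1 (chr18:26736828-26737127), Junb (chr19:40080876-40081175) and Ier2 (chr19:40399123-40399422), all on the plus strand, are given because these genes were high in the same livers. Capitals mark CArG boxes, TGACG on either strand, the full TGACGTCA and TATAAA.
Egr1: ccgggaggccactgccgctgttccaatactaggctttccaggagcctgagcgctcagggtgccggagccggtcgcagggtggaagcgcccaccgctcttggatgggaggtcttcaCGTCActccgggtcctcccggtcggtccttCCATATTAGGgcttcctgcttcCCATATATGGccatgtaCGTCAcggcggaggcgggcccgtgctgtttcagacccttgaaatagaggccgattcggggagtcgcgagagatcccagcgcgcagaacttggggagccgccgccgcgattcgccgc
Junb: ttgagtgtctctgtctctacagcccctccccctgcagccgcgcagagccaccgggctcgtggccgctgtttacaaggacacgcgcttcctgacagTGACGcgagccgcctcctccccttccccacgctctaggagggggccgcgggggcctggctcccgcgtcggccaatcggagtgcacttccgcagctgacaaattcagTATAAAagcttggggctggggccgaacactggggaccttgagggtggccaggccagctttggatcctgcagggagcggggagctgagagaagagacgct
Ier2: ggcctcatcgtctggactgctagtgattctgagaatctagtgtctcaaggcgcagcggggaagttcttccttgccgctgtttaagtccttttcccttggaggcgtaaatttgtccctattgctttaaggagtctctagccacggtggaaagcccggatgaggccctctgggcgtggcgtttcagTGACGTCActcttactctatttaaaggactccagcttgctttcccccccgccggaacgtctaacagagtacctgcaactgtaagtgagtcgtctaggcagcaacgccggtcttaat
Egr1 held 2 CArG boxes, which began 105 and 83 bases before the start, and 2 copies of TGACG read on the minus strand. Ier2 held the palindrome TGACGTCA 66 bases before the start. Junb held 1 copy of TGACG and a TATAAA that began 49 bases before the start. Over all 33469 promoters of this length, a CArG box occurred in 1.64%, TGACGTCA in 1.83%, TGACG (which lies within TGACGTCA) in 21.2% and TATAAA in 14.2%, on either strand. TGANTCA, the AP-1 site with any middle base, occurred in 7.33% of all promoters and in 0 of the 5 windows. CACGTG, the site of Myc with Max, occurred in 6.42% and in 0 of 5. GCGNGGGCG, a site of Egr1 itself, occurred in 4.98% and in 2 of 5, and GGGCGG in 33.1% and 2 of 5. Both of these motifs lay in the windows of Nr4a1 and Btg2, which are not printed, and in none of the printed ones. These matches describe letters in a window and not bound factors.

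Most deposited values hardly vary between arrays. With an SD over the 10 livers of 0.01 as the dividing line, 4050 probe sets varied and 26992 (87.0%) were near-constant. Of the member probe sets, 9 varied, covering Fos, Jun (3 probe sets), Junb, Egr1, Myc, Ier2 and Ier3. The probe sets of Atf3, a stress-induced repressor of the ATF/CREB family, and of Nr4a1, an orphan nuclear receptor, were near-constant at 6.07 and 6.43 in every liver, as was a second Fos probe set at 6.01. Their group differences were at most 0.00012 log2 units in size, so these 3 probe sets carry no measurable information on the diet.

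No member was called between the diets, and the 7 varying genes are the ones in which a change could have been seen. Of the 12 member probe sets, limma called 0 at an adjusted p under 0.05, and 0 had an unadjusted p under 0.05. Over all probe sets limma called 0 of 31042 (0%), and 4.48% (1390) had an unadjusted p under 0.05. An exact permutation test over samples gave 0 calls overall and an unadjusted p of at least 0.111 for every member, where the 252 assignments of the livers allow a smallest p of 0.00794. Of the 9 varying member probe sets, 7 had a lower and 2 a higher mean in seasoned livers, against 46.7% lower among all varying probe sets. Their median difference was -0.25, that of all varying probe sets 0.0079. The diets overlapped in all 12, whereas they did not in 0.77% of all probe sets and in 2.99% of the varying ones. Fitting the varying probe sets alone, limma called 0 of 9 members (smallest adjusted p 0.450) and 0.321% of all.

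The AP-1 genes come first. AP-1 is a dimer of a Fos and a Jun protein that binds DNA through a basic leucine zipper, and Fos needs a Jun partner to bind. Fos had signals of 5.96, 6.64, 5.37, 5.45 and 5.54 in the seasoned livers (animals 1, 4, 7, 10 and 13) and of 6.03, 5.72, 6.23, 6.80 and 5.62 in the control livers (animals 2, 5, 8, 11 and 14). Animals 4 and 11 were the highest of their diets, and seasoned animals 7, 10 and 13 were the lowest of all 10. The difference was -0.29 ± 0.31 (SE, 5 livers per group), with a 95% interval of -0.99 to 0.41 and an adjusted p of 0.9997 by limma. Fos lay under the median of all values in 8 of 10 livers, where a signal can understate a change.

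Jun was measured by 3 varying probe sets. The brightest had 7.77, 8.40, 7.91, 7.15 and 7.09 in seasoned livers, against 7.86, 7.95, 8.65, 8.47 and 7.70 in control livers. Seasoned animals 10 and 13 were below every control, while seasoned animals 1, 4 and 7 lay within the control range. Its difference was -0.46 ± 0.30, with an interval of -1.14 to 0.22, and the other probe sets differed by -0.45 ± 0.24 (-1.01 to 0.10) and -0.34 ± 0.23 (-0.86 to 0.18). The smallest unadjusted p of any member, 0.0937 by limma, belonged to the probe set with the difference of -0.45, with an adjusted p of 0.9997. Probe sets whose names end in _s_at, as 2 of these do, can share oligonucleotides between transcripts, and all 3 report 1 gene, so they are not independent.

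Junb encodes a Jun protein that often restrains growth where Jun promotes it. It had 7.07, 7.70, 7.24, 6.87 and 6.68 in seasoned livers and 7.08, 7.30, 7.52, 7.47 and 6.96 in control livers. Seasoned animal 4 was above and animals 10 and 13 below all controls, and animals 1 and 7 lay among them. The difference was -0.16 ± 0.20, with an interval of -0.61 to 0.30.

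Egr1, a zinc finger factor that is among the fastest genes to answer serum and growth factors, varied most among the members. It had 8.44, 9.63, 8.38, 6.91 and 7.03 in seasoned livers, against 7.79, 7.86, 7.40, 9.0 and 6.70 in control livers. The highest and the lowest of the 10 livers differed 7.60-fold, and both diets spanned most of that range. The SD over the livers, 0.95, was above that of 99.4% of the varying probe sets, whose median SD was 0.19. The difference was 0.33 ± 0.61, with an interval of -1.07 to 1.72, which runs from a 0.477-fold to a 3.30-fold ratio. It was -0.060 without seasoned animal 4 and 0.64 without control animal 11.

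Myc, which heterodimerizes with Max to drive genes of growth and ribosome production, had nearly equal means. Its signals were 6.83, 7.82, 7.68, 6.28 and 6.65 in seasoned livers and 6.80, 6.73, 7.44, 7.77 and 6.58 in control livers. Seasoned animals 4 and 7 and control animals 8 and 11 were the highest, and the diets covered nearly the same range. The difference was -0.012 ± 0.37, with an interval of -0.85 to 0.83. It ranged between -0.20 without seasoned animal 4 and 0.18 without seasoned animal 10.

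Ier2 and Ier3 are small proteins rather than classical DNA-binding factors. Ier2 is a nuclear protein induced with Fos, and Ier3 acts in cell survival and in the control of ERK and NF-kappaB signalling. Ier2 had 7.92, 8.95, 8.64, 7.96 and 7.47 in seasoned livers and 7.88, 7.85, 8.22, 8.82 and 7.65 in control livers, with a difference of 0.11 ± 0.33 and an interval of -0.64 to 0.85. The control livers had the same order as for Myc, and the difference was -0.086 without seasoned animal 4 and 0.29 without control animal 11. Ier3 had 8.26, 9.29, 8.93, 8.44 and 7.97 in seasoned livers and 8.87, 8.93, 8.83, 8.76 and 8.76 in control livers. Seasoned animal 4 lay above the narrow control range, animals 1, 10 and 13 below it and animal 7 within it. The SDs were 0.53 in seasoned and 0.0759 in control livers, and this difference in spread was not tested. The means differed by -0.25 ± 0.23, with an interval of -0.79 to 0.28.

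**Figure D1:**
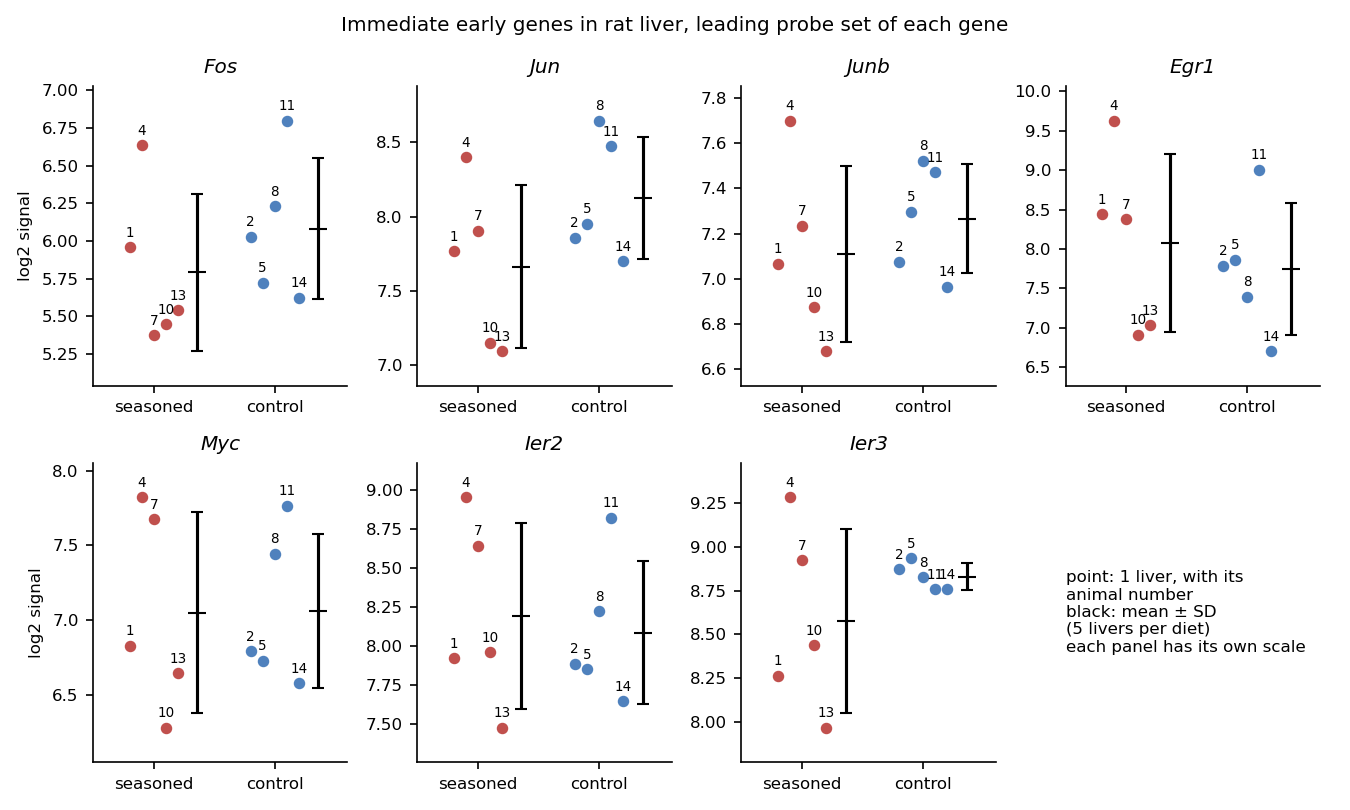
Log2 signal (vertical axis, a scale of its own in each panel) of the brightest varying probe set of 7 immediate early genes in 5 seasoned and 5 control livers. Points are livers with their animal numbers, black marks are mean ± SD, and the diets overlap in every panel, with seasoned animal 4 the highest seasoned liver in all 7.

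**Figure D2:**
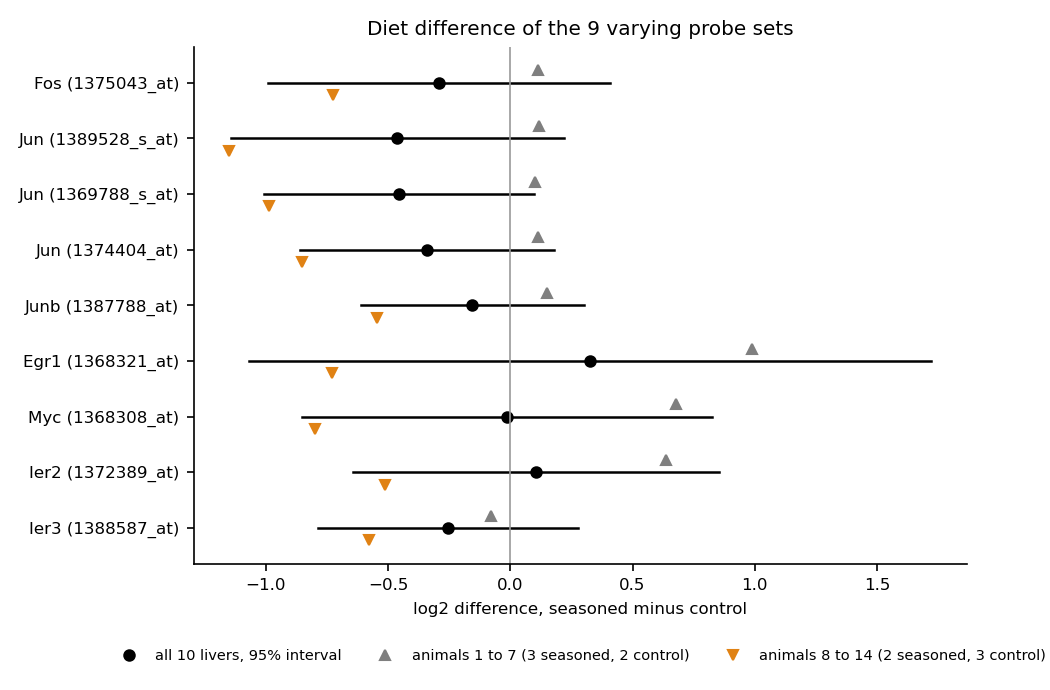
Log2 difference, seasoned minus control (horizontal axis), of the 9 varying member probe sets over all 10 livers with its 95% interval, and the difference of means within animals 1 to 7 and within animals 8 to 14. Every interval holds 0, and within animals 8 to 14 all 9 differences are below 0. The share of all varying probe sets below 0 there was not counted.

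Most members were high and low in the same livers. Seasoned animal 4 was the highest of the 5 seasoned livers in 9 of 9 varying member probe sets, against 25.4% of all varying probe sets. Among controls, animal 11 was the highest in 5 of 9 and animal 8 in 3 of 9, against 10.7% and 12.9% of all varying probe sets, and animal 5 was the highest for Ier3. Averaged over the 7 varying genes and set relative to the mean of all livers, the seasoned livers were at -0.084, 0.80, 0.19, -0.54 and -0.63 in the order of their numbers, and the control livers at -0.076, -0.068, 0.21, 0.61 and -0.41. All 7 genes were above their own mean in seasoned animal 4 and in control animal 11, and 0 of 7 in seasoned animals 10 and 13. Ier3 differed from the others within the controls, where animal 11, at 8.7579, was the lowest of the 5. Egr1 in animal 4 was 1.92 log2 units above the median of the other seasoned livers, Fos 1.14, Myc 1.08 and Ier2 1.01. As members share these livers, their differences between the diets are not independent of one another.

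**Figure D3:**
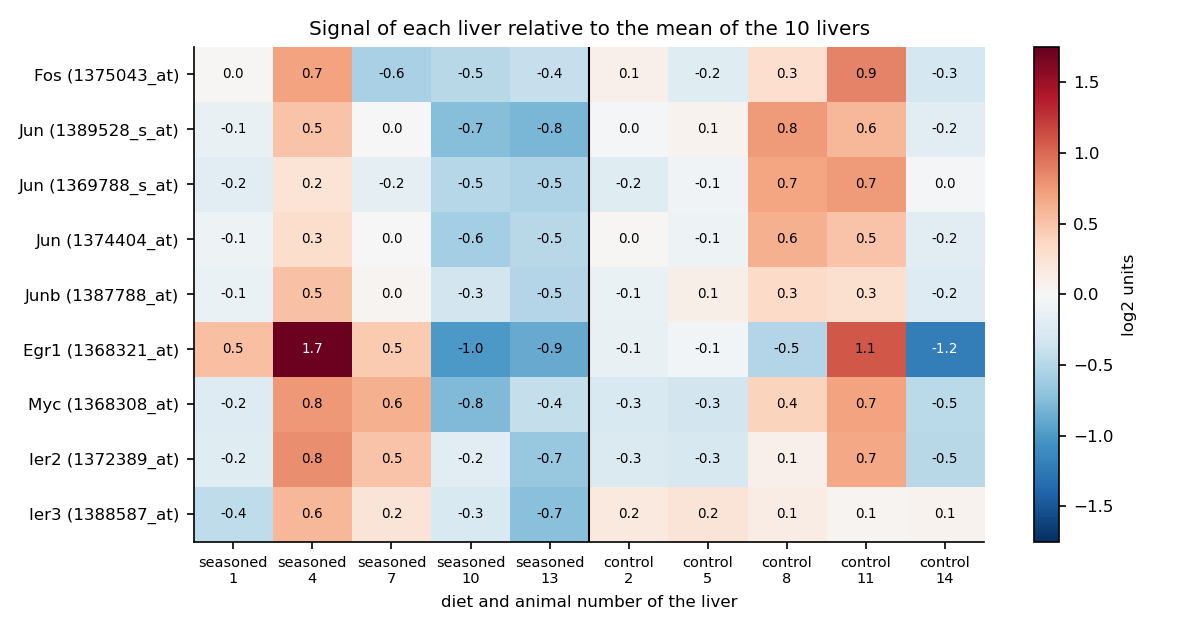
Signal of each varying member probe set (rows) in each liver (columns, diet and animal number) relative to the mean of the 10 livers, in log2 units by colour and printed value. Seasoned animal 4 and control animal 11 are above the mean in all rows, and seasoned animals 10 and 13 below it.

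Fos was then set against each of the 6 other varying genes, with values centred on the diet means so that the diets themselves do not enter. Over 10 livers Pearson's r was 0.81 for Egr1 (exact within-group permutation p = 0.0119), 0.76 for Jun (exact p = 0.0213), 0.74 for Junb (exact p = 0.0271), 0.72 for Ier2 (exact p = 0.0342) and 0.69 for Myc (exact p = 0.0403), each with an adjusted p of 0.0483 over the 6 relations. For Ier3, r was 0.36 (exact permutation p = 0.414, adjusted p = 0.414). Spearman's rho was 0.65, 0.60, 0.58, 0.52 and 0.66 for Egr1, Jun, Junb, Ier2 and Myc and -0.030 for Ier3, and none of these 6 passed (exact permutation p between 0.0592 and 0.946, adjusted p of at least 0.160). Without the livers farthest from the median of Fos, control animal 11 and seasoned animal 4, r was 0.38 for Egr1, 0.54 for Jun, 0.37 for Junb, 0.081 for Ier2, 0.24 for Myc and -0.30 for Ier3. Leaving out these livers also narrows the range of Fos. The relations in the 8 livers left were not tested, nor was the reason for the lower r. Centred on diet and animal-number set together, r was 0.89 for Egr1 (exact permutation p = 0.0278, adjusted p = 0.167) and between 0.22 and 0.72 for the other genes, with 0 of 6 passing after adjustment. Within diet and set only 144 assignments are possible, against 14400 within the diets. The test within diet and set is thus coarser. Compared with centring on diet alone, r rose for Egr1 and fell for the other genes. The reason why no relation passed was not tested.

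**Figure D4:**
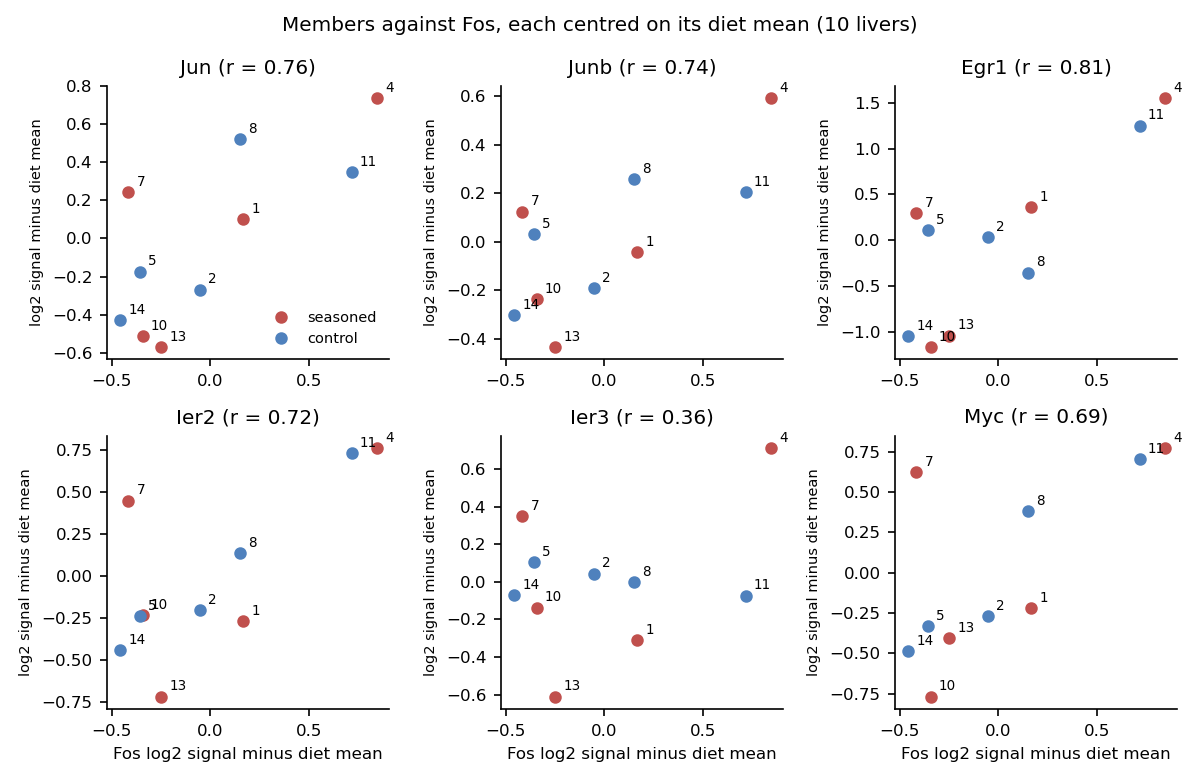
The 6 other varying members (vertical axes) against Fos (horizontal axes), both as log2 signal minus the mean of the liver's diet, with 1 point per liver and its animal number. Seasoned animal 4 and control animal 11 lie at the upper right for Egr1, Ier2 and Myc, while for Ier3 control animal 11 lies near the diet mean.

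The animal numbers bear on these genes too. Animals 8 to 14 are known from earlier results of these data to differ from animals 1 to 7 in many probe sets. In the fit used here limma called 3.27% of all probe sets between these sets. Of the 4050 varying probe sets it called 405, of which 387 were lower in animals 8 to 14. The labels name no batch of that kind, although the array positions rise with the animal numbers in both rows. Of the 9 varying member probe sets, 0 were called between the sets (smallest adjusted p 0.294 by limma). Within animals 1 to 7 the seasoned mean was higher in 8 of 9, by 0.99 for Egr1, 0.68 for Myc, 0.64 for Ier2 and 0.11 for Fos, with Ier3 at -0.079. Within animals 8 to 14 it was lower in 9 of 9, by -0.73 for Egr1, -0.80 for Myc, -0.51 for Ier2, -0.72 for Fos and -1.15 for the brightest Jun probe set. How many of all varying probe sets shared these directions within each set was not counted. The Jun probe sets among the 9 report 1 gene, so these counts show nothing particular to the members.

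The test of the difference between these sets gave no call. The interaction of diet and set was below 0 in 9 of 9 varying member probe sets, against 54.1% of all varying ones. It had an unadjusted p under 0.05 by limma in 4 of them, the 3 of Jun and that of Myc (-1.48 ± 0.60, SE), against 11.4% of all varying probe sets. After adjustment 0 of 31042 passed (0%), with a smallest member value of 0.674 by limma. Seasoned animal 4 lies in the lower set and control animal 11 in the higher one, each set holds 2 livers of 1 diet, and the part of these 2 livers in the interaction was not tested.

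Marker genes of other cells were read beside the livers that stood high or low. The summed linear signal of Kupffer cell and macrophage markers (6 of 8 measured, 5 varying) lay between 2273 and 3511 in seasoned livers and between 2501 and 3004 in controls. It was the highest of all in seasoned animal 4, while control animal 11, at 2536, ranked 7 of 10. Seasoned animals 10 and 13, the lowest livers for the members, were also the lowest of all in these markers, at 2273 and 2491. Other livers did not follow the members: control animal 8, at 0.21 in the members' average, ranked 8 of 10, at 2501. Control animal 14, at -0.41 in that average, ranked 6, at 2575. The lymphocyte markers (6 of 8 measured, none varying) gave 549 in every liver. Neutrophil markers (5 of 6 measured, 1 varying, S100a9) gave 348 to 402 in seasoned livers and 345 to 366 in controls, with animal 4 at 366 and animal 11 at 345. Stellate cell and fibroblast markers (7 of 7 measured, 3 varying) gave 1487 to 1817 in seasoned livers and 1560 to 2194 in controls, and were the highest of all in control animal 11 and at 1750 in seasoned animal 4. Endothelial markers (5 of 7 measured, 2 varying, Stab2 and Lyve1) gave 1914 to 2048 in seasoned livers and 1928 to 2128 in controls. They were again lowest of all in seasoned animals 10 (1918) and 13 (1914). In the same order of the diets, cholangiocyte markers (4 of 5 measured, 1 varying, Epcam) gave 363 to 389 and 342 to 400. Red blood cell markers (3 of 6 measured, 1 varying, Hbb) gave 3244 to 4086 and 2675 to 3882. In the neutrophil, endothelial, cholangiocyte and red blood cell sums, differences between livers rest almost wholly on these varying markers. The part of other cells in the member signals was not tested. Control animal 11 had the lowest median over the varying probe sets, 8.07, against 8.19 to 8.30 in the other controls. Seasoned animals 10 and 13 had medians of 8.10 and 8.14, below the 8.24 to 8.27 of the other seasoned livers, among which animal 4 had 8.26. The part of these array levels in the member signals was not tested.

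Genes outside the set whose pattern was most like that of the members were taken from the named genes with a varying probe set by Pearson's r with the members' mean over the 10 livers, after centring on diet, as a description. The 5 most alike of 2797 genes were Arhgap42 (r = 0.95), Dusp6, the phosphatase that switches off ERK (0.92), Greb1l (0.91), Gadd45g, a growth arrest and stress gene (0.89), and Nipal1 (0.86). Dusp6 had 6.83, 8.04, 7.58, 6.89 and 7.0 in seasoned livers and 7.25, 7.22, 7.47, 7.78 and 6.90 in control livers, again highest in animals 4 and 11. Gadd45g had 6.95, 8.74, 8.44, 6.82 and 6.59 in seasoned livers and 7.98, 7.10, 8.90, 8.95 and 6.63 in control livers. None of the 5 was called between the diets by limma (adjusted p of 0.9997 each). These genes were picked for their likeness, so that the value of r supports nothing further.

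Lists of related genes were then described, each gene by its brightest varying probe set. In all 9 lists, 0 genes were called by limma over all probe sets. Of 16 measured genes of the AP-1 and ATF family outside the set, 4 varied, among them Atf5 (0.18 ± 0.12) and Atf4 (-0.091 ± 0.086), the effectors of the integrated stress response. Atf4 was steady at 9.76 to 9.82 in seasoned livers and spread over 9.63 to 10.09 in controls.

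Among 22 further immediate early transcription factor genes, 12 varied, of which 7 had a lower and 5 a higher mean in seasoned livers. An unadjusted p under 0.05 was found in 4 of the lower and 1 of the higher ones, against 12.5% of all varying probe sets. Klf10, an early response gene of TGF-beta and of the clock, had 8.01, 7.71, 7.92, 8.13 and 7.28 in seasoned livers and 8.40, 8.57, 9.18, 8.68 and 8.40 in control livers, so that the diets did not overlap. Its difference was -0.83 ± 0.20, with an interval of -1.30 to -0.37 and an adjusted p of 0.724 by limma. Bhlhe40, a clock repressor, did not overlap either, at 7.46, 7.26, 7.59, 7.57 and 7.61 in seasoned livers and 7.97, 8.23, 8.81, 7.93 and 8.52 in control livers (-0.79 ± 0.17, adjusted p = 0.634). Animal 4, the highest seasoned liver for the members, was the lowest seasoned liver for Bhlhe40 and the second lowest for Klf10. Klf10 was like the members in part, with controls 8 and 11 the highest controls and animal 13 the lowest seasoned liver. Centred on diet, r with the members' mean was 0.26 for Klf10 and -0.41 for Bhlhe40. Over the 12 varying genes of this list, seasoned animal 4 was the highest seasoned liver in 4, against 25.4% of all varying probe sets. Control animal 11 was the highest control in 1 and control animal 8 in 4, against 10.7% and 12.9%.

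Of 38 signalling and feedback genes of the early response, 25 varied, 18 with a lower and 7 with a higher mean in seasoned livers, and the median difference was -0.15. An unadjusted p under 0.05 was found in 5 of the lower and 1 of the higher ones. Among all varying probe sets 46.7% were lower and 12.5% had such a p. Btg1, an antiproliferative relative of Btg2, had 11.67, 11.87, 11.73, 11.92 and 11.68 in seasoned livers and 11.47, 11.34, 11.44, 11.56 and 11.51 in control livers. All seasoned livers were above all controls, with a difference of 0.31 ± 0.061, an interval of 0.17 to 0.45 and an adjusted p of 0.515 by limma. Ccn2, the connective tissue growth factor, differed by -0.30 ± 0.090 (adjusted p = 0.850). Seasoned animal 4 was the highest seasoned liver in 12 of these 25 genes and control animal 11 the highest control in 10 of 25, against the 25.4% and 10.7% above.

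Upstream kinases and downstream targets gave no call. Of 18 measured genes of the ERK, JNK and p38 pathways and of SRF partners, 4 varied, with Egfr, the EGF receptor, at 0.14 ± 0.20 and Mapk14, the p38 kinase, at -0.062 ± 0.073. Of 22 genes of the Myc network and its targets, 10 varied, with Nop58, a nucleolar protein, at 0.21 ± 0.077 and Ccnd1, cyclin D1, at -0.43 ± 0.21. Of 5 measured Egr1 corepressors and BTG partners, 1 varied, Cnot1 of the deadenylase complex (0.011 ± 0.078). Of 8 measured p53 targets, 6 varied, with Cdkn1a, the cell cycle inhibitor p21, at 0.89 ± 0.43 and Sesn1 at 0.27 ± 0.19. Cdkn1a had 8.61, 8.51, 8.07, 7.41 and 7.50 in seasoned livers and 6.71, 6.61, 6.94, 8.57 and 6.80 in control livers, so that control animal 11 alone overlapped with the seasoned livers.

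Of 16 measured acute phase and inflammatory genes, 8 varied. Cxcl1, a neutrophil chemokine, had 7.16, 10.04, 8.14, 6.51 and 6.91 in seasoned livers and 7.42, 6.59, 6.44, 6.51 and 6.01 in control livers, with a difference of 1.16 ± 0.65 and an adjusted p of 0.9997 by limma. It too was highest in seasoned animal 4, whereas control animal 11, at 6.51, lay within the range of the other controls. Stat3, a factor of cytokine signalling, differed by 0.017 ± 0.0047 (adjusted p = 0.794). Of 5 measured heat shock genes, 4 varied, with Hsph1 at 0.23 ± 0.19 and Dnajb1 at -0.14 ± 0.16. Dnajb1 was at 8.01 in seasoned animal 4, the lowest of all 10 livers, and at 8.13 in control animal 11. Control animal 11 was the highest control in 1 of the 4 varying heat shock genes, and seasoned animal 4 the highest seasoned liver in 0.

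**Figure D5:**
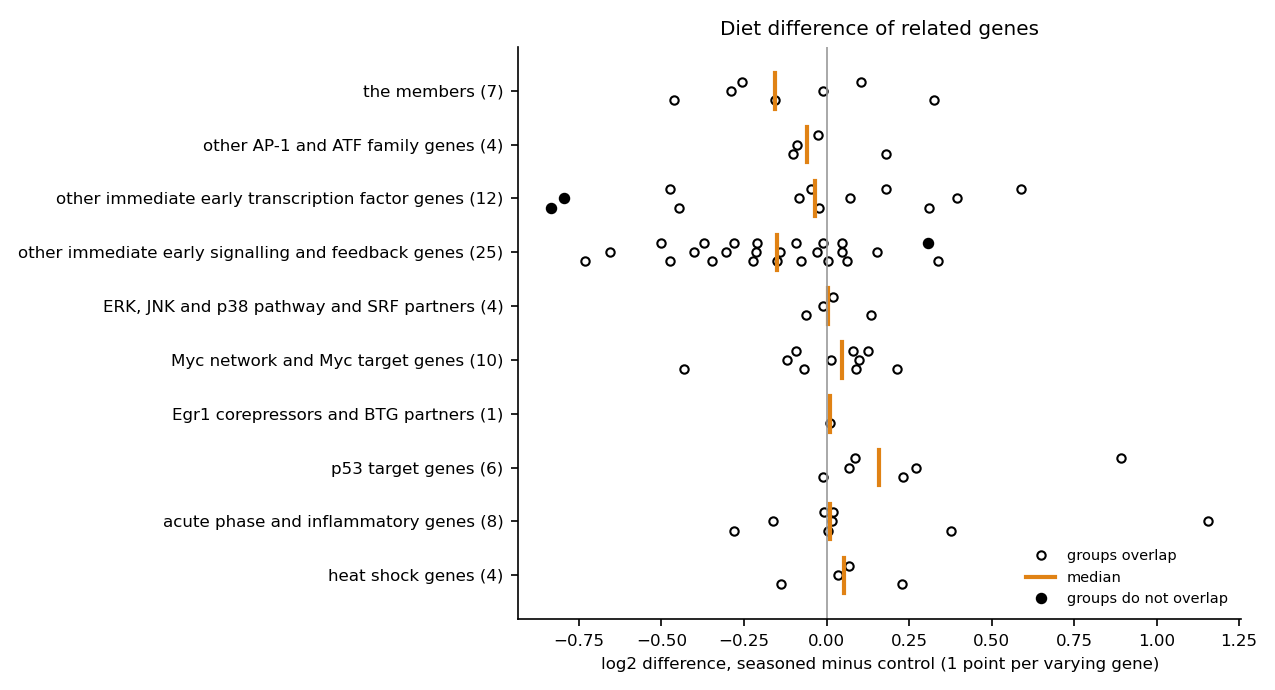
Log2 difference, seasoned minus control (horizontal axis), of every varying gene of the members and of 9 related lists, with the number of genes in brackets and an orange bar at the median. Filled points are genes whose diets do not overlap, namely Klf10 and Bhlhe40 (lower in seasoned livers) and Btg1 (higher), and 0 genes in any row were called after adjustment.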

How the data were processed

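Total RNA of 10 rat livers was labelled with biotin and hybridised to Affymetrix rat arrays, per the labels' protocols (100 ng of RNA per sample); the extraction protocol mentions brain although every tissue label says liver. The deposited table holds a log2 signal per probe set and array. Its summary and normalization are not given in the sources used here, and the log base was read from the values (4.79 to 14.34). Neither scanner files nor detection calls entered, and precision is set by how many arrays there are.

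The table has 31099 probe sets, and its 57 control probe sets were dropped. The platform's gene table gives 20826 probe sets 1 gene, 436 several, and 9780 are unnamed in it; symbols were updated through RefSeq's GRCr8 gene table. All 31042 probe sets entered limma 3.58.1 (lmFit, eBayes, two-sided) in R 4.3.3, seasoned minus control, without covariates, with Benjamini-Hochberg adjustment. No filter on dim values was applied. Animals are numbered separately in the titles, so p-values measure the spread between rats. Relations with Fos used Python 3.11.15 and exact permutation within the diets (14400 assignments). The members, the gene lists, the animal-number sets and the tests were chosen with earlier results of these data known. All members were named, and in each other list the 2 varying genes with the smallest p and any called; Dusp6, Gadd45g, Arhgap42, Greb1l and Nipal1 were named for their likeness. Alternatives covered the choice of probe sets, a filter on dim values, normalization, variance models, an exact test, covariates, assumed pairs and leaving out each liver. The fits were tested on simulated data.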

Additional observations from a re-analysis of the deposited data

Results flagged for a closer look

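For 31 probe sets of named genes, the 5 seasoned and the 5 control livers were searched for a value lying apart from the rest, meaning a gap above 0.71 times the spread of its diet. Of 62 such sets of livers, 2 had one, and chance alone gives about 1 in 20, here 3.1 under independence. Neither gene is a member. Egfr was low in seasoned animal 10 (10.19, ratio 0.7814), and Cdkn1a was high in control animal 11 (8.57, ratio 0.8365). In the 9 varying member probe sets, the high signals of seasoned animal 4 and control animal 11 stayed under this limit.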

How the results depend on the processing

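No member probe set was called under any of 21 alternatives, and the smallest adjusted p of a member was 0.407. Without adjustment, limma gave a p under 0.05 for 3 member probe sets with arrays centred on varying probe sets (smallest 0.008). It did so for 3 without seasoned animal 4 (smallest 0.041), for 1 without control animal 14 (0.045) and for none under the other alternatives. Of 185 recomputed member differences, 10 changed sign. These were differences of Egr1 (between -0.060 and 0.64 with 1 liver left out), Ier2 (-0.086 to 0.29) and Myc (-0.20 to 0.18), each lowest without seasoned animal 4, and Myc at 0.21 with array weights, which also gave 0.97 for Egr1, 0.32 for Ier2, -0.12 for Fos and -0.028 for Junb. Fos, Jun, Junb and Ier3 stayed below 0 in all alternatives that tested them, but with 1 liver left out Fos lay between -0.50 (without seasoned animal 4) and -0.11 (without control animal 11). Without seasoned animals 4 and 13 in turn, the brightest Jun probe set was at -0.65 and -0.32, Junb at -0.30 and -0.047, and Ier3 at -0.43 and -0.10. The varying Fos probe set has no value without dim probe sets, being dim itself, or with the brightest probe set per gene, where the near-constant one is taken. Over all probe sets the 0 calls became 13 among varying probe sets alone, none of them a member, and 255 with arrays centred on their varying probe sets, a step that shifts all near-constant ones alike within an array. With 1 liver left out the count lay between 0 and 10, the highest without control animal 11. The fit with neighbouring animal numbers as assumed pairs (a replicate block) called 0 probe sets; no label pairs the animals. Centred on diet and animal-number set, the relations with Fos no longer passed for Jun (r = 0.72), Junb (0.68), Egr1 (0.89), Ier2 (0.62) and Myc (0.58). That test has 144 assignments against 14400. The r value of Egr1 rose from 0.81, and those of Jun (from 0.76), Junb (from 0.74), Ier2 (from 0.72) and Myc (from 0.69) fell. Without the 2 livers farthest from the median of Fos the r values of these genes were 0.54, 0.37, 0.38, 0.081 and 0.24, and Ier3 turned to -0.30. The cause of these changes in r and of the lost calls was not tested.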
